A study of Ovis aries with 26 samples.

Results

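The comparison set 4-cell (4C) sheep embryos against 2-cell (2C) embryos, gene by gene. It used 3 libraries labelled 4C, called 4C 1 to 4C 3 here, and 4 libraries labelled 2C, called 2C 1 to 2C 4. Genes at 1 or more FPKM (a read level normalized for gene length and library depth) in at least 2 of these 7 libraries were its members, 10163 of the 30186 genes in the table. Of them, 7872 reached that level in every one of the 7 libraries. The 540 genes that reached it in only 2 libraries had a median of mean FPKM of 0.806, and the 944 genes that reached it in only 1 and were left out had one of 0.544.

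The series covers sheep preimplantation development in poly(A) RNA, with 26 libraries of 8 stages that run from mature oocytes in meiotic arrest (MII) to expanded blastocysts. The embryos were made by in vitro fertilization of mature oocytes and kept in a commercial embryo culture medium until they were collected, and this holds for the 4C and the 2C embryos alike. The embryos were lysed directly and their RNA was copied by Smart-seq2, which amplifies full-length cDNA from very little RNA. The labels name no strain, treatment or age, do not say how many embryos went into a library, and do not say whether replicates came from separate animals or cultures, and a p-value below therefore reflects the spread among the 7 libraries, which may be of technical origin.

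A sheep embryo at these cleavage divisions lives largely on RNA and protein that the oocyte stored, and the main activation of its own genome is known to follow around the next cleavage divisions. Stored messages are controlled mostly through their poly(A) tails, by storage, by recruitment to ribosomes and by decay. Tail length was not measured here, so the levels are those of captured poly(A) RNA. The oocyte matures inside a layer of cumulus cells, somatic cells of the follicle that stay attached to it until they are removed before or after fertilization.

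The 7 libraries held 30700000 to 35300000 assigned reads, a depth recovered from the steps between the low FPKM values of small RNA genes. The number of genes at an FPKM of at least 1 was 9359 to 9525 in the 4C libraries, against 8972 to 9562 in the 2C libraries. Across the tested genes, Pearson correlations of log2(FPKM + 1) were 0.956 to 0.974 between 4C libraries, 0.941 to 0.974 between a 4C and a 2C library, and 0.965 to 0.989 between 2C libraries, and the ranges between and within stages overlapped. A list of 38 oocyte and maternal-effect genes was also read in these libraries. Of the 35 in the table, 33 were tested, and their summed FPKM was 8680 to 10272.5 in the 4C libraries, against 9595 to 11685 in the 2C libraries. At the 8-cell stage the sum was 9299 to 13129, so the list cannot tell the 4C label from the 2C label.

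Few genes were called as different between the stages. Differences below are 4C minus 2C of log2(FPKM + 1). On this scale the change of a gene at about 1 FPKM or less appears smaller than it is. A gene was called higher or lower when limma's moderated test gave a Benjamini-Hochberg adjusted p under 0.05 over all tested genes and the difference was at least 1 in size. By this rule 9 genes, or 0.0886% of those tested, were higher at 4C, and 3 genes, or 0.0295%, were lower. At an unadjusted p under 0.05 there were 1644 genes, 16.2% of those tested. The median difference of all tested genes was -0.01. A difference of at least 1 was reached by 274 genes (2.7%) in the higher direction and by 36 (0.354%) in the lower, whether called or not.

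The calls rested on a narrow margin. Of the 12 called genes, 11 had the same adjusted p of 0.049, because the adjustment ties neighbouring genes. All 12 were called without 4C 1, where 49 genes were called higher and 48 lower, and without 2C 1, where 72 were called higher and 13 lower. Without 4C 2 or 2C 2, 1 of the 12 was called, and without 4C 3, 2C 3 or 2C 4 none was.

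**Figure D1:**
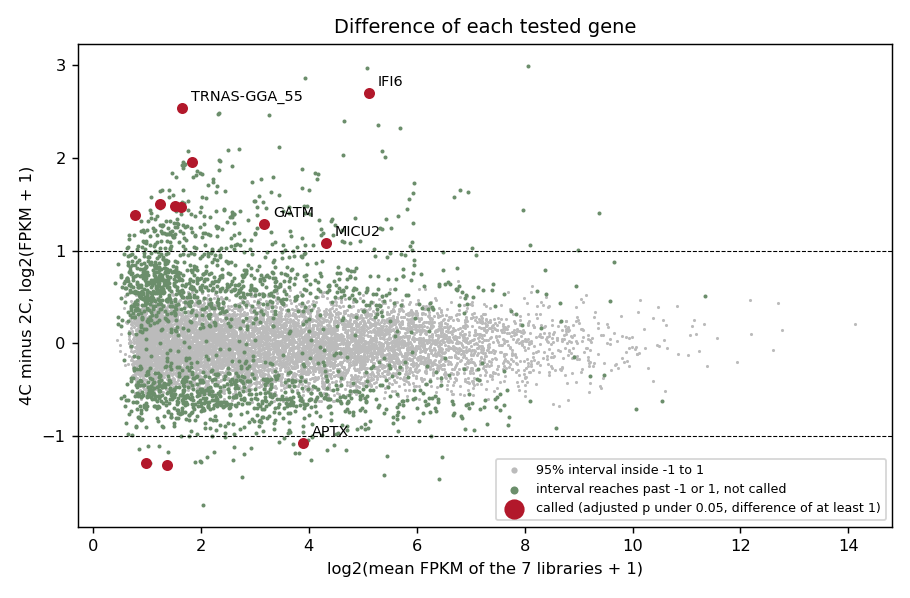
Each point is 1 of the 10163 tested genes, by its mean level over the 7 libraries (x axis, log2 FPKM + 1) and its difference (y axis, 4C minus 2C). Grey genes had a 95% interval inside -1 to 1 (8172 genes), green genes did not and were not called, and the 12 red genes were called.

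The largest called difference of a protein-coding gene was that of IFI6, an interferon-inducible gene. It had 49.9, 67.9 and 77.3 FPKM in the 4C libraries, against 15.5, 12.6, 6.74 and 4.78 FPKM in the 2C libraries. The groups did not overlap, and within 2C the values of 2C 1 and 2C 2 were above those of 2C 3 and 2C 4. IFI6 averaged 65.1 ± 13.9 FPKM at 4C and 9.90 ± 5.00 FPKM at 2C (SD, n = 3 and 4), a difference of 2.70 ± 0.35 (SE; limma, adjusted p = 0.049). It was at 0.635 and 1.20 FPKM in the MII oocytes and at 46.6, 34.8, 61.2 and 0.436 FPKM in the 8-cell (8C) libraries, so 1 of the 8C libraries had almost none. SRGN, a marker of the stromal list described below, was low in that same 8C library, at 5.47 FPKM against 114 to 246 FPKM in the others. The part of somatic cells in the IFI6 difference was not tested.

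MICU2, a regulator of calcium uptake into mitochondria, was the most even of the called genes. It had 27.1, 26.6 and 28.5 FPKM in the 4C libraries and 12, 11.7, 11.5 and 14.9 FPKM in the 2C libraries. The 3 4C values lay within 2 FPKM of each other and all were above the highest 2C value. The difference was 1.08 ± 0.14 (SE; limma, adjusted p = 0.049), and MICU2 had stood at 7.58 and 7.78 FPKM in the MII oocytes.

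GATM, which makes the precursor of creatine and stood on the list of cumulus and granulosa cell markers, had 12.7, 12.1 and 13.0 FPKM in the 4C libraries, against 3.71, 6.03, 4.73 and 4.08 FPKM in the 2C libraries. Its groups did not overlap, with a difference of 1.29 ± 0.17 (SE; limma, adjusted p = 0.049). GATM was at 6.52 and 5.93 FPKM in the MII oocytes, at 145 FPKM in morulae and 301 FPKM in expanded blastocysts.

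The other genes called higher were low in both stages. CASP8, a protease that starts apoptosis, had 3.57, 3.68 and 4.29 FPKM in the 4C libraries and 0.965, 1.23, 0.542 and 0.384 FPKM in the 2C libraries. ANGPT2, a secreted ligand of the receptor TEK, had 2.73, 3.24 and 4.68 FPKM in the 4C libraries and 0.406 to 0.842 FPKM in the 2C libraries. PLEKHA2, a lipid-binding adaptor, had 2.40, 2.34 and 3.58 FPKM in the 4C libraries and 0.0574 to 0.651 FPKM in the 2C libraries. All of these groups were separate, by differences of 1.47 for CASP8, 1.48 for ANGPT2 and 1.5 for PLEKHA2 (limma, adjusted p = 0.049 each). POLD4, the small subunit of DNA polymerase delta, had 1.24, 1.55 and 2.16 FPKM in the 4C libraries, was listed at 0 in 3 of the 2C libraries and had 0.0287 FPKM in 2C 4. LOC106990117, an unnamed protein-coding gene, had 5.92, 5.10 and 4.49 FPKM in the 4C libraries and 0.101 to 1.22 FPKM in the 2C libraries. Their differences were 1.38 for POLD4 and 1.95 for LOC106990117 (limma, adjusted p = 0.049 each). Of the 7 libraries, ANGPT2, PLEKHA2 and POLD4 reached 1 FPKM only in those of 4C. CASP8 reached it in only 1 2C library (1.23 FPKM in 2C 2), as did LOC106990117 (1.22 FPKM in 2C 1). The filter asks for 2 libraries, so all of these genes entered the test through the group where they were high.

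The transfer RNA gene TRNAS-GGA_55 had the smallest adjusted p, and it too entered the test through the 4C libraries alone. It had 6.06, 3.06 and 5.88 FPKM in the 4C libraries and was listed at 0 in all of the 2C libraries, a difference of 2.54 ± 0.22 (SE; limma, adjusted p = 0.0116). Transfer RNA genes occur in near-identical copies that share reads, so the copy that gave these values is uncertain. The name TRNAS-GGA_55 is also not among the symbols of the RefSeq gene table. The libraries are of poly(A) RNA, and whether reads on transfer RNA genes came from transfer RNA or from other transcripts was not tested. Of 2419 transfer RNA genes in the table, 50, 57 and 51 were above 0 in the 4C libraries, against 45, 52, 39 and 40 in the 2C libraries, and their summed FPKM was 228 to 271 in the 4C libraries, against 200 to 289 in the 2C libraries. As a class they therefore overlapped between the stages.

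Among the 3 genes called lower, APTX was the best measured. It encodes aprataxin, which repairs DNA ends left by failed ligation. APTX had 8.40, 7.53 and 8.20 FPKM in the 4C libraries, against 15.8, 17.2, 20.6 and 18.8 FPKM in the 2C libraries. The difference was -1.07 ± 0.14 (SE; limma, adjusted p = 0.049). In the MII oocytes it was at 5.92 and 8.28 FPKM, so the 2C level was the high one of these 3 stages. LOC105604932, an unnamed protein-coding gene, had 0.172, 0.575 and 0.499 FPKM in the 4C libraries and 2.14 to 2.82 FPKM in the 2C libraries. LOC121818835, a long non-coding RNA, was at 0 to 0.206 FPKM in the 4C libraries and at 1.23 to 2.07 FPKM in the 2C libraries. Their differences were -1.31 for LOC105604932 and -1.29 for LOC121818835 (limma, adjusted p = 0.049 each). Both entered the test through the 2C libraries alone, the group where they were high.

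**Figure D2:**
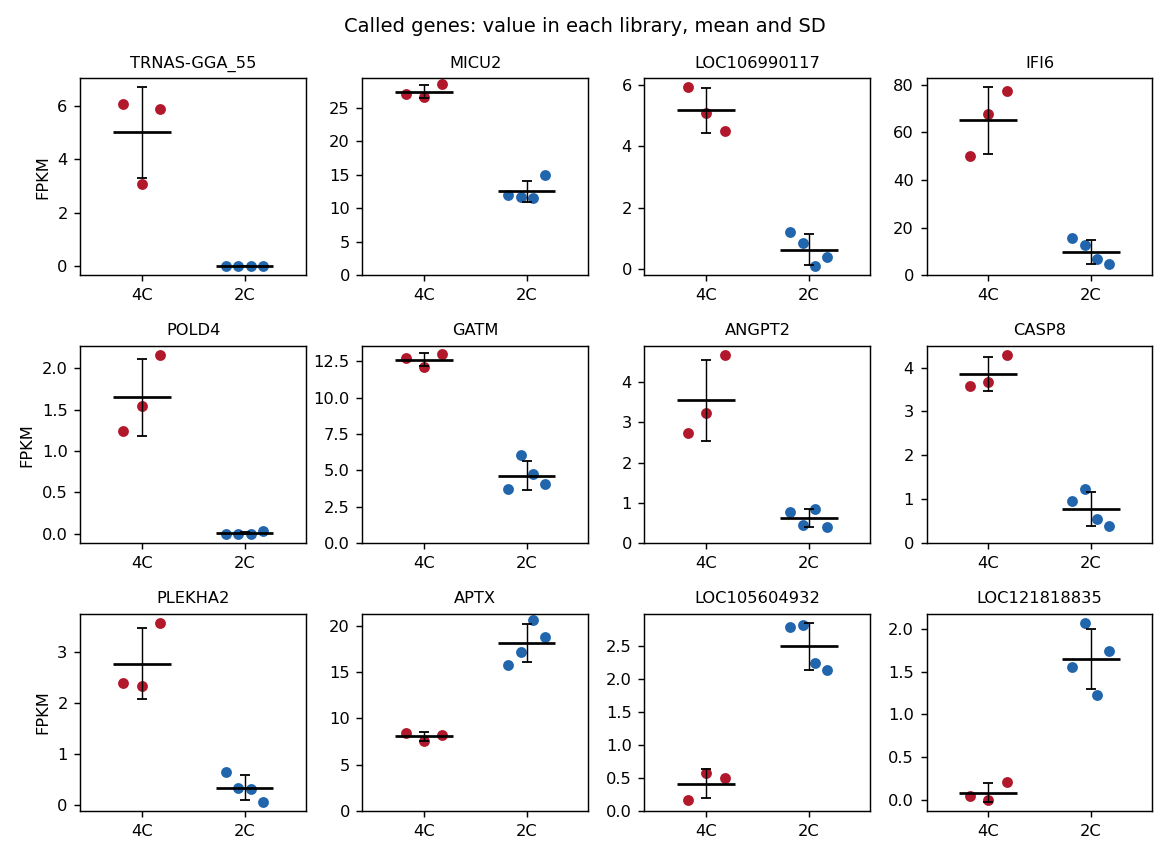
FPKM of the 12 called genes in each 4C library (red, left) and each 2C library (blue, right), with the mean (line) and SD (bar); each panel has its own y axis. In each panel the groups are separate, as for MICU2 at 26.6 to 28.5 FPKM at 4C and 11.5 to 14.9 FPKM at 2C.

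Beyond the calls, every 4C library lay above every 2C library for 648 genes (6.38% of those tested) and below for 711 genes (7%). With a difference of at least 1 as well, there were 153 genes above (1.51%) and 26 below (0.256%). The gene nearest to a call was IL10RB, a subunit of cytokine receptors, with 2.54, 1.68 and 1.73 FPKM in the 4C libraries and 0.159 to 0.339 FPKM in the 2C libraries (difference 1.22; limma, adjusted p = 0.053). IL10RB also entered the test through the 4C libraries alone.

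Separate groups on the lower side, none of them called, included the following genes, taken by the smallest unadjusted p. SQSTM1, a receptor that delivers ubiquitinated cargo to autophagy, had 31.5, 27.5 and 15.3 FPKM in the 4C libraries and 52.7, 60.2, 55.0 and 57.1 FPKM in the 2C libraries (difference -1.21; limma, adjusted p = 0.0967). Its MII values were 108 and 113 FPKM and its 8C mean was 19.5 FPKM. COMMD8, a member of a family of endosomal trafficking proteins, had 75.6, 29.0 and 29.1 FPKM in the 4C libraries and 97.3, 135, 105 and 115 FPKM in the 2C libraries (difference -1.47; limma, adjusted p = 0.118), and its 8C mean was 14.2 FPKM. KCTD5, an adaptor of a ubiquitin ligase, had 0.661, 1.80 and 1.3 FPKM in the 4C libraries and 4.01 to 4.84 FPKM in the 2C libraries (difference -1.28; limma, adjusted p = 0.0702), after 8.85 and 10.7 FPKM in the MII oocytes. For these 3 genes the 4C mean was therefore below both the MII and the 2C mean. Further separate groups were those of SLC8B1, a mitochondrial sodium and calcium exchanger (difference -1), the long non-coding RNA LOC121817045 (-1.15) and the transfer RNA gene TRNAG-UCC_107 (-1.74), with an adjusted p of 0.0967 each in limma's test.

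For most genes the data bounded the difference. A gene was counted as bounded when the 95% confidence interval of its difference lay inside -1 to 1, which excludes a change of the FPKM + 1 value by a factor of 2 in either direction. This held for 8172 genes, or 80.4% of those tested, and 2329 genes (22.9%) were bounded inside -0.5 to 0.5. The share increased with level: it was 73.1% of genes with a mean FPKM under 2, 76.5% from 2 to 5, 81.8% from 5 to 20, 87.2% from 20 to 100 and 89.9% at 100 or more. Low genes have little room to move on this scale. With a pseudocount of 0.1 in place of 1 the count was 6350.

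Among bounded genes, PTTG1 (securin, which inhibits the protease that separates sister chromatids until anaphase begins) had the highest mean level. It had 19954, 18582 and 19587 FPKM in the 4C libraries and 17791, 17673, 15523 and 16366 FPKM in the 2C libraries, a difference of 0.20 with an interval from -0.04 to 0.45. CKS1B, a partner of cyclin-dependent kinases, averaged 7360 ± 946 FPKM at 4C and 6633 ± 446 FPKM at 2C. MAGOH, a core protein of the exon junction complex, averaged 7684 ± 1128 FPKM at 4C and 5778 ± 1541 FPKM at 2C, with an interval from -0.01 to 0.88. PAIP1, which binds the poly(A)-binding protein in translation, averaged 5988 ± 788 FPKM at 4C and 6337 ± 1205 FPKM at 2C. The interval of PAIP1 ran from -0.47 to 0.33.

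The other bounded genes of highest level were CALM2 (calmodulin), TMSB4X (an actin-binding peptide), BCL2L10 (a BCL2 family protein abundant in oocytes), UBB (ubiquitin), PSMA4 (a proteasome subunit) and KEF53_p08 (ATP6, an ATP synthase subunit of the mitochondrial genome). Their differences ran from -0.25 for PSMA4 to 0.47 for TMSB4X. UBB was the tightest of them, with 3147, 2780 and 3356 FPKM in the 4C libraries, 2740 to 3222 FPKM in the 2C libraries and an interval from -0.21 to 0.31.

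For scale, the same 10163 genes were fitted over all 26 libraries. In that fit 766 genes were called higher and 326 lower at 2C against MII, 36 higher and 5 lower at 4C against 2C, and 89 higher and 72 lower at 8C against 4C. The median absolute differences were 0.426, 0.206 and 0.262 in the same order. These steps share libraries and were set side by side without a test of their differences.

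None of the oocyte and maternal-effect genes was called. Their median difference was -0.24, against -0.01 for all tested genes, and it ran from -0.37 (without 4C 2) to -0.2 (without 4C 3) with 1 library left out. Of the list, 27 of the 33 tested had a negative difference, and 29 (87.9%) were bounded, against 80.4% of all tested genes. All 4C libraries were below all 2C libraries for 6 of them and above for none, against 7% and 6.38% of all tested genes. BTG4, which drives removal of poly(A) tails from maternal RNA, had 2373, 2596 and 2229 FPKM in the 4C libraries and 1950, 2192, 2587 and 2257 FPKM in the 2C libraries, with an interval from -0.19 to 0.39. ZP3 and ZP4, genes of the egg coat, were not called. ZP3 had 101, 99.4 and 74.5 FPKM in the 4C libraries and 118, 155, 142 and 184 FPKM in the 2C libraries (difference -0.70; limma, adjusted p = 0.154), and ZP4 averaged 1110 ± 141 FPKM at 4C and 1496 ± 314 FPKM at 2C (difference -0.41; limma, adjusted p = 0.325). NPM2, an oocyte histone chaperone, had 224, 123 and 87.9 FPKM in the 4C libraries and 216 to 289 FPKM in the 2C libraries (difference -0.88; limma, adjusted p = 0.208), so only 4C 1 overlapped the 2C values. Of the 33 genes, 14 were highest in 2C 4 and none in 4C 1.

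Of 59 RNA decay and storage factors, 51 (86.4%) were bounded, against 80.4% of all tested genes, and none was called, as for nearly all tested genes. Their median difference of 0.01 ran from -0.04 (without 4C 3) to 0.05 (without 4C 1) with 1 library left out. EIF4E, the cap-binding protein, averaged 1546 ± 95.9 FPKM at 4C and 1614 ± 242 FPKM at 2C. The 2 factors with the largest differences were BTG1, a cofactor of deadenylases (8.40 ± 3.83 FPKM at 4C and 4.53 ± 2.73 FPKM at 2C; limma, adjusted p = 0.367), and ZFP36L2, which binds AU-rich messages (3 ± 1.22 FPKM at 4C and 0.967 ± 1.11 FPKM at 2C; limma, adjusted p = 0.236). Of 17 cleavage and polyadenylation factors, 16 (94.1%) were bounded, against 80.4% of all tested genes. CSTF1, a subunit of the cleavage stimulation factor, had 765, 788 and 716 FPKM in the 4C libraries and 607, 895, 746 and 828 FPKM in the 2C libraries, with an interval from -0.34 to 0.32. CLP1, an RNA kinase of the cleavage complex, had 8.11, 12.7 and 4.91 FPKM in the 4C libraries and 11.1 to 14.2 FPKM in the 2C libraries (difference -0.60; limma, adjusted p = 0.304).

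Of 60 splicing regulators, 48 (80.0%) were bounded, against 80.4% of all tested genes, and none was called, as for nearly all tested genes. Their median difference of 0.14 ran from 0.08 (without 2C 3) to 0.21 (without 2C 1) with 1 library left out. HNRNPU, an abundant nuclear RNA-binding protein, averaged 203 ± 7.86 FPKM at 4C and 206 ± 28.3 FPKM at 2C. SRSF6, an SR protein of exon choice, had 30.2, 15.8 and 20.4 FPKM in the 4C libraries and 15.4, 7.82, 3.37 and 2.88 FPKM in the 2C libraries, a difference of 1.67 (limma, adjusted p = 0.186). Its groups were separate by a small margin, and it was at 1.53 and 1.78 FPKM in the MII oocytes. SRSF7, another SR protein, was lower, at 140 ± 43.1 FPKM at 4C and 196 ± 24.9 FPKM at 2C (difference -0.51; limma, adjusted p = 0.27). MBNL1, a splicing factor, had 13.3 FPKM in 4C 1, 3.16 and 3.03 FPKM in 4C 2 and 4C 3, and 0.652 to 4.05 FPKM in the 2C libraries, so its difference of 1.02 came with 1 high library (limma, adjusted p = 0.378).

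Of 57 chromatin regulators, 53 (93.0%) were bounded, against 80.4% of all tested genes, and none was called. All 4C libraries were below all 2C libraries for 7 of them and above for 2, against 7% and 6.38% of all tested genes. Their median difference of -0.12 ran from -0.15 (without 2C 3) to -0.07 (without 4C 1) with 1 library left out. DNMT1, the maintenance DNA methyltransferase, averaged 420 ± 94.8 FPKM at 4C and 552 ± 21.7 FPKM at 2C (difference -0.42; limma, adjusted p = 0.24). SIN3A, the scaffold of a histone deacetylase complex, had 28.4, 29.0 and 26.3 FPKM in the 4C libraries and 37.5, 49.7, 45.0 and 50.9 FPKM in the 2C libraries (difference -0.69; limma, adjusted p = 0.107). ASF1B, a histone chaperone, had 47.6, 67.0 and 49.6 FPKM in the 4C libraries and 67.5 to 105 FPKM in the 2C libraries (difference -0.66; limma, adjusted p = 0.176). The remodeller SMARCA5 averaged 273 ± 29.0 FPKM at 4C and 265 ± 29.0 FPKM at 2C.

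Of 53 cyclins and cell cycle regulators, 46 (86.8%) were bounded, against 80.4% of all tested genes, and none was called, as for nearly all tested genes. At an unadjusted p under 0.05, 5 of the 53 were higher and 6 lower, against 819 higher and 825 lower of all 10163 tested genes. The median difference was -0.09, while their summed FPKM was 25267, 23585 and 24444 in the 4C libraries and 23423, 23719, 21501 and 22597 in the 2C libraries, so the groups overlapped and the sum and the median differed in direction. FBXO5, an inhibitor of the anaphase-promoting complex, had 358, 277 and 155 FPKM in the 4C libraries and 434, 515, 469 and 467 FPKM in the 2C libraries (difference -0.92; limma, adjusted p = 0.169). PCNA, the replication clamp, had 1031, 672 and 659 FPKM in the 4C libraries and 991, 1344, 1321 and 1442 FPKM in the 2C libraries (difference -0.71; limma, adjusted p = 0.171). CDKN1A, an inhibitor of cyclin-dependent kinases, had 2.79, 4.41 and 12.1 FPKM in the 4C libraries and 1.13 to 3.75 FPKM in the 2C libraries, with 1 high library, 4C 3 (difference 1.16; limma, adjusted p = 0.245).

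None of the 76 cytosolic ribosomal protein genes was called, only 25 (32.9%) were bounded, against 80.4% of all tested genes, and 73 had a positive difference. Their median difference was 0.55, and it ran from 0.28 (without 4C 1) to 0.78 (without 2C 1) with 1 library left out. Their summed FPKM was 8734, 5521 and 6726 in the 4C libraries and 7165, 4960, 4469 and 4223 in the 2C libraries, so 2C 1 lay above 4C 2 and 4C 3 and the groups overlapped. Of the 76, 52 (68.4%) were highest in 4C 1, against 20.1% of all tested genes, and 47 were lowest in 2C 4. All 4C libraries were above all 2C libraries for 4 of the 76, against 6.38% of all tested genes. RPL7 had 702, 530 and 614 FPKM in the 4C libraries and 521, 403, 385 and 310 FPKM in the 2C libraries (difference 0.62; limma, adjusted p = 0.193). RPS3A had 238, 129 and 172 FPKM in the 4C libraries and 99.4, 51.1, 58.9 and 29.9 FPKM in the 2C libraries (difference 1.65; limma, adjusted p = 0.125). RPS2 averaged 351 ± 64.3 FPKM at 4C and 333 ± 32.7 FPKM at 2C, with an interval from -0.28 to 0.41, so members of this list were not alike.

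Nuclear-encoded subunits of oxidative phosphorylation had the same high library. Of 57 tested, 29 (50.9%) were highest in 4C 1, against 20.1% of all tested genes, and 34 (59.6%) were bounded, against 80.4%. Their median difference of 0.09 ran from -0.14 (without 4C 1) to 0.23 (without 4C 2) with 1 library left out. ATP5ME, a small subunit of ATP synthase, had 51.3, 9.07 and 15.4 FPKM in the 4C libraries and 27.8, 11.5, 6.77 and 4.37 FPKM in the 2C libraries (difference 0.89; limma, adjusted p = 0.534). ATP5PF, another subunit, averaged 1336 ± 235 FPKM at 4C and 978 ± 257 FPKM at 2C. Genes of the mitochondrial genome were examined as a list added after the values were seen: 12 of 13 were tested, none was called, and their median difference of 0.17 ran from 0 (without 2C 3) to 0.27 (without 4C 2) with 1 library left out.

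RNA polymerase II machinery held no called gene, as for nearly all tested genes, and 36 of 42 (85.7%) were bounded, against 80.4% of all tested genes. TBPL1, a relative of the TATA-binding protein, averaged 2347 ± 671 FPKM at 4C and 2426 ± 358 FPKM at 2C. Of 29 stress and p53 target genes, 18 (62.1%) were bounded, against 80.4% of all tested genes, a difference that was not tested, and none was called. HSPA5, a chaperone of the endoplasmic reticulum, had 51.4, 44.3 and 84.8 FPKM in the 4C libraries and 36.3, 24.5, 19.9 and 19.1 FPKM in the 2C libraries (difference 1.23; limma, adjusted p = 0.132). HSPB1, a small heat shock protein, had 42.1, 37.3 and 40.5 FPKM in the 4C libraries and 33.6, 26.1, 9.96 and 5.34 FPKM in the 2C libraries (difference 1.36; limma, adjusted p = 0.254). TXN, thioredoxin, had 1218, 423 and 545 FPKM in the 4C libraries and 231 to 514 FPKM in the 2C libraries, again highest in 4C 1. PRDX1, a peroxidase, averaged 706 ± 244 FPKM at 4C and 557 ± 27.7 FPKM at 2C.

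**Figure D3:**
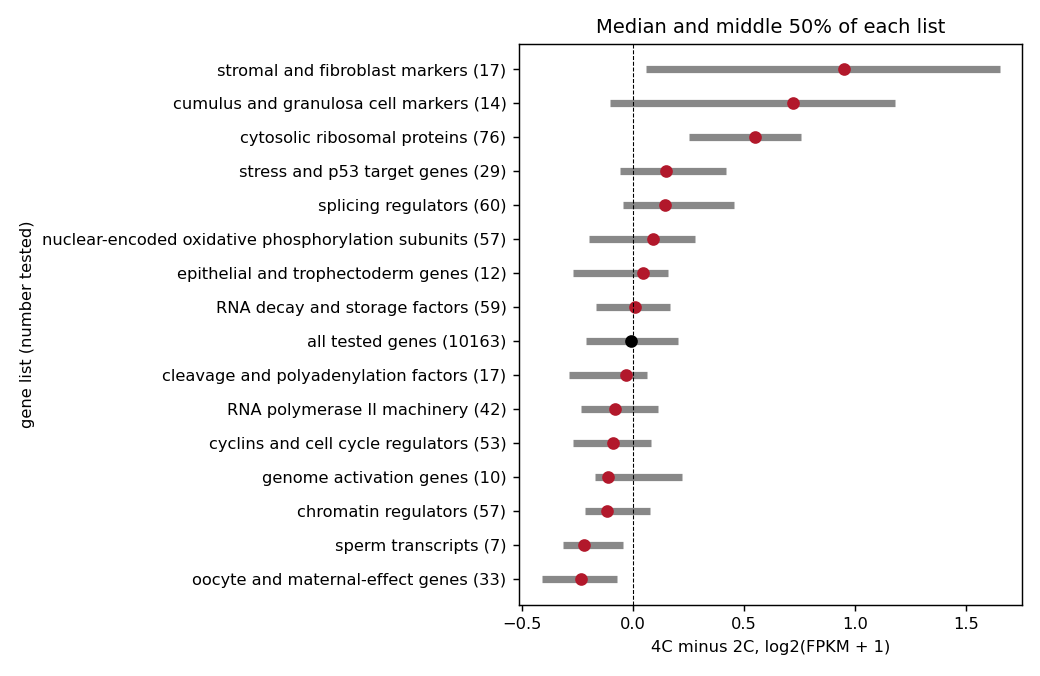
Median difference (point) and middle 50% (bar) of the tested members of each gene list on the log2(FPKM + 1) scale, 4C minus 2C, with the number tested in brackets and all tested genes in black. The stromal (0.95), cumulus (0.72) and ribosomal protein (0.55) lists lie highest and the oocyte list (-0.24) lowest.

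Markers of somatic cells varied from library to library inside each stage. In libraries of whole embryos, more cells of a type and more RNA per cell cannot be told apart. The 34 stromal and fibroblast markers summed to 3069, 1135 and 1648 FPKM in the 4C libraries, against 984, 1254, 305 and 251 FPKM in the 2C libraries, after 113 and 156 FPKM in the MII oocytes. The highest sum was that of 4C 1, and 2C 2 lay above 4C 2, so the stages overlapped. In each 4C and 2C library most of the stromal sum came from TIMP1 and SRGN, with 1711 and 801 FPKM in 4C 1. The 27 cumulus and granulosa cell markers in the table summed to 708, 247 and 283 FPKM in the 4C libraries, against 309, 308, 141 and 97.4 FPKM in the 2C libraries, after 78.4 and 83.2 FPKM in the MII oocytes. Again 4C 1 was highest and the stages overlapped.

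Of these lists, 17 stromal and 14 cumulus markers passed the filter on low values, which a gene can do through the 4C libraries alone. The only call was GATM. The median difference of the tested markers was 0.95 for the stromal and 0.72 for the cumulus list, with 13 of the 17 and 10 of the 14 positive. With 1 library left out, the stromal median ran from 0.56 (without 2C 4) to 1.3 (without 2C 2) and was 0.62 without 4C 1. The cumulus median ran from 0.44 (without 2C 3) to 0.92 (without 2C 2) and was 0.55 without 4C 1. Of 34 stromal markers, 16 were below 1 FPKM in all 7 libraries, including the collagens COL1A1 and COL3A1 and the growth factor receptor PDGFRA, and COL6A1 and MMP3 were listed at 0. Of 27 cumulus markers, 9 were below 1 FPKM in all 7 libraries, including FOXL2, AMH, AMHR2, PTGS2 and LHCGR.

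The markers that were present did not all follow the same libraries. SRGN, a proteoglycan core protein, had 801, 477 and 305 FPKM in the 4C libraries and 61.5, 140, 40 and 38.6 FPKM in the 2C libraries, the largest difference of the list at 2.99 ± 0.46 (SE; limma, adjusted p = 0.0684). It was separate between the stages and 4C 1 was highest. IGFBP7, a secreted growth factor binding protein, had 31.1, 30.4 and 72.3 FPKM in the 4C libraries and 18.3, 8.77, 4.66 and 2.77 FPKM in the 2C libraries (difference 2.40; limma, adjusted p = 0.128), with 4C 3 highest. TIMP1, an inhibitor of metalloproteinases, had 1711, 353 and 902 FPKM in the 4C libraries and 640, 809, 142 and 122 FPKM in the 2C libraries (difference 1.40; limma, adjusted p = 0.397), and overlapped. The 4 stromal markers with a negative difference, COL1A2, COL6A3, DCN and ACTA2, were at -0.15 to -0.01 and overlapped between the stages. DCN, a matrix proteoglycan and the highest of them, had 19.8, 18.6 and 5.64 FPKM in the 4C libraries and 11, 16.5, 14.5 and 16.6 FPKM in the 2C libraries. SPARC and VIM, a matrix protein and an intermediate filament, were picked, like those 4, after their values were seen: SPARC was at 21.9 to 28 FPKM in the 4C libraries and 3.34 to 16.1 FPKM in the 2C libraries, and VIM at 50.7 to 123 FPKM in the 4C libraries and 4.40 to 52.6 FPKM in the 2C libraries.

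Among follicle markers, FSHR, the receptor of follicle-stimulating hormone, had 6.43, 4.63 and 4.89 FPKM in the 4C libraries and 0.369, 2.90, 0.355 and 0.224 FPKM in the 2C libraries. Its groups were separate, with a difference of 1.86 ± 0.38 (SE; limma, adjusted p = 0.107), and it was at 0 and 0.0748 FPKM in the MII oocytes. FSHR reached 1 FPKM in only 1 2C library, 2C 2, so it passed the filter through the 4C libraries. SERPINE2, a protease inhibitor, had 84.1, 62.7 and 78.8 FPKM in the 4C libraries and 53.1, 27.9, 23.5 and 17.8 FPKM in the 2C libraries (difference 1.38; limma, adjusted p = 0.133). Unlike FSHR, it was already at 28.3 and 23.4 FPKM in the MII oocytes. LUM, a matrix proteoglycan that stood on both lists, had 289, 122 and 133 FPKM in the 4C libraries and 134, 180, 61.1 and 37.4 FPKM in the 2C libraries, and overlapped (limma, adjusted p = 0.41). The tested follicle markers with a negative difference were HSD3B1 (-0.37), STAR (-0.36), TNFAIP6 (-0.32) and VCAN (-0.30), and each overlapped between the stages. HSD3B1, STAR and VCAN were named after their values were seen. The part of somatic cells in the differences of other genes was not tested.

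Blood, endothelial and sperm markers did not move with these lists. The 31 endothelial and blood cell markers in the table summed to 10.9, 13.2 and 10 FPKM in the 4C libraries, against 10.7, 29.7, 10.4 and 11.3 FPKM in the 2C libraries. Of them, 28 were below 1 FPKM in all 7 libraries and 9 were listed at 0, while TEK, a receptor of angiopoietins, was at 7.15 to 9.93 FPKM in the 4C libraries and 6.37 to 8.69 FPKM in the 2C libraries. The 29 sperm transcripts summed to 15.9 to 16.1 FPKM in the 4C libraries and 15.1 to 24.6 FPKM in the 2C libraries. Of the sperm transcripts, 20 were below 1 FPKM in all 7 libraries, and the protamine genes PRM2 and PRM3 were listed at 0. Epithelial and trophectoderm genes summed to 101 to 118 FPKM in the 4C libraries and 97.3 to 123 FPKM in the 2C libraries. Of the 12 tested, 10 (83.3%) were bounded, against 80.4% of all tested genes.

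**Figure D4:**
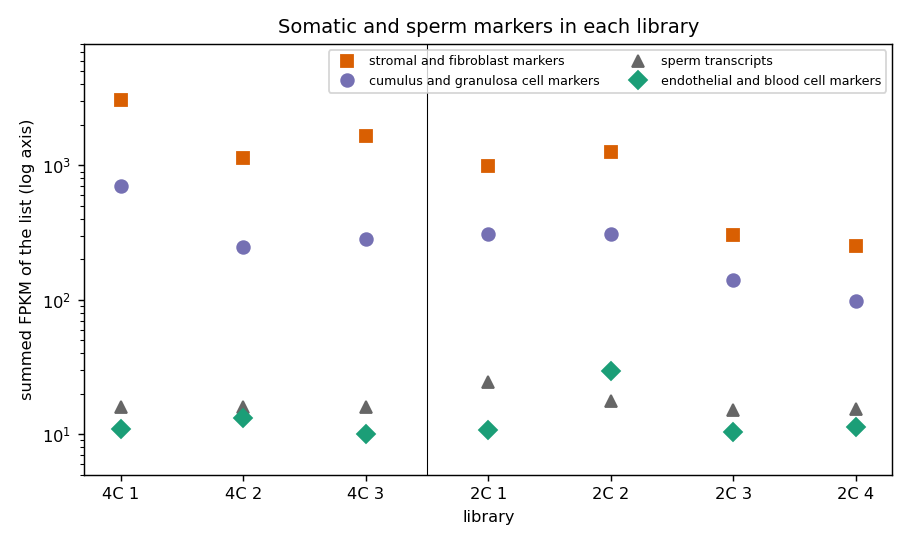
Summed FPKM (log axis) of 4 marker lists in each library, 4C left and 2C right. The stromal and cumulus sums are highest in 4C 1 (3069 and 708) and lowest in 2C 4 (251 and 97.4), and the sperm and the endothelial and blood sums stay between 10 and 29.7. TIMP1 and SRGN make up most of each stromal sum.

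Genes that stood apart in a single library were rare under a strict rule. The rule asked for an FPKM of at least 5 in the highest library and a gap of at least 2 on the log2(FPKM + 1) scale to the second highest of the 7. It found 4 genes, with none in a 2C library. TNFAIP6, a matrix protein that cumulus cells make as they expand, had 235 FPKM in 4C 1, 2.65 and 2.07 FPKM in 4C 2 and 4C 3, and 49.4, 41.0, 17.3 and 1.28 FPKM in the 2C libraries. PTGR1, an enzyme that inactivates prostaglandins, had 31.1 FPKM in 4C 1, 4.97 and 3.07 FPKM in 4C 2 and 4C 3, and 0.553 to 4.34 FPKM in the 2C libraries. The transfer RNA gene TRNAC-ACA_37 had 10.3 FPKM in 4C 2, 1.34 FPKM in 4C 3, and was listed at 0 in 4C 1 and in every 2C library. ZSCAN4, a zinc finger gene known as a marker of genome activation in mammals, had 17.0 FPKM in 4C 3, 1.32 FPKM in 4C 2, and was listed at 0 in 4C 1 and in every 2C library.

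With a gap of 1, a setting chosen after the values were seen, 94 genes stood apart, and 86 of them did so in a 4C library. There were 53 in 4C 1, 4 in 4C 2 and 29 in 4C 3, against 5, 2, 1 and 0 in 2C 1 to 2C 4. The levels of these genes in other stages, which the rule did not use, differed between 4C 1 and 4C 3. The 53 genes high in 4C 1 had a median of 2.55 FPKM in MII oocytes and 2.92 FPKM in 8C embryos. All 8C libraries lay above all MII libraries for 24.5% of them, against 36% of all tested genes. The 29 genes high in 4C 3 had a median of 0 FPKM in MII oocytes and 10.2 FPKM in 8C embryos, and all 8C libraries lay above all MII libraries for 62.1% of them. The difference between these shares was not tested. Named after their values were seen, the genes high in 4C 1 included the stromal protease MMP1 (47.5 FPKM there, 3 and 6.07 FPKM in the other 4C libraries, and 0.437 to 16.1 FPKM in the 2C libraries) and the proteasome subunit PSMA1 (98.0 FPKM there, 27.9 and 33.1 FPKM in the other 4C libraries, and 14.3 to 32.5 FPKM in the 2C libraries).

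A further set was defined by 4 stages: below 1 FPKM in every MII and 2C library, at 1 or more in at least 1 4C library and in every 8C library. It held 45 genes, of which 19 passed the filter of the comparison and none was called. Since the rule used the 4C and 2C values, the levels are given as a description. At an FPKM of at least 1 there were 5 of the 45 in 4C 1, 21 in 4C 2 and 39 in 4C 3. In 4C 1, 21 of the 45 were listed at 0, against none in 4C 2 and none in 4C 3. The value in 4C 3 was above that in 4C 2, and that in 4C 2 above that in 4C 1, for 29 genes. At 16C, 24 of the 45 had a mean above their 8C mean.

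The 15 genes of this set with the highest 8C mean had medians of 0 FPKM in each MII and 2C library, of 0, 1.9 and 10.8 FPKM in the 4C libraries, and of 15.2, 21.5, 117 and 64.5 FPKM in the 8C libraries. ZSCAN4 led them, with 29.2, 50.9, 235 and 118 FPKM in the 8C libraries. LOC114110154 had 0.384, 5.24 and 22.8 FPKM in the 4C libraries, was listed at 0 in 3 of the 2C libraries and had 0.250 FPKM in 2C 4. ANXA2R had 0, 0.0667 and 7.05 FPKM in the 4C libraries and at most 0.0643 FPKM in the 2C libraries. LOC105609441 had 0, 4.66 and 12.2 FPKM in the 4C libraries and was listed at 0 in the 2C libraries. LOC101109572 was the exception among the 15 in 4C 1, with 1.06, 0.158 and 1.47 FPKM in the 4C libraries.

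Of the 45 genes, 23 had LOC names. In the order of the RefSeq sheep gene table, 18 of the 45 lay in 6 groups in which each gene was within 15 annotated genes of the next. The largest group held 6 protein-coding LOC genes within a stretch of 15 annotated genes, among them LOC114110154, LOC114110159 and LOC101121215. Neighbouring genes of this kind can be near-identical copies that share reads, so which copy a value belongs to is uncertain.

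A second set used the MII and 8C values alone. By a rule written after the values were seen, 46 genes were below 1 FPKM in the MII oocytes, at 1 or more in every 8C library and at a mean of 5 or more at 8C. The set shares 25 genes with the 45 above and is no independent observation. Of the 46, 16, 28 and 42 were at 1 or more in 4C 1, 4C 2 and 4C 3, against 17, 15, 13 and 13 in 2C 1 to 2C 4. The number listed at 0 was 24, 0 and 0 in the 4C libraries and 25, 25, 24 and 22 in the 2C libraries. Their summed FPKM was 141, 160 and 338 in the 4C libraries and 93.5, 69.1, 56.3 and 56.3 in the 2C libraries. The 21 genes outside the 45 had 15, 16 and 17 at 1 or more in the 4C libraries, against 17, 15, 13 and 13 in the 2C libraries. The rule of the 45 took genes below 1 FPKM in every 2C library and at 1 or more in a 4C library. The even counts of the 21 therefore follow from that rule and are given as a description. The number of these 21 listed at 0 was 4, 0 and 0 in the 4C libraries and 4 in each 2C library. The sum includes TM4SF1, a membrane protein gene, and the stromal markers IGFBP5 and SPARC, with 34.8, 30.3 and 22.3 FPKM in 4C 1. Without these 3 genes it was 53.7, 97.1 and 249 FPKM in the 4C libraries and 51.8, 42.4, 46.1 and 50.2 FPKM in the 2C libraries, so 4C 1 lay just above the highest 2C library. The library 4C 1 was also the one with the largest stromal and cumulus sums.

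A list of genes known from genome activation in mammals gave few values. Of 23 in the table, 10 were tested and none was called. Their median difference of -0.11 ran from -0.29 (without 4C 1) to -0.02 (without 4C 2) with 1 library left out. EIF1AX, a translation initiation factor, had 1139, 185 and 227 FPKM in the 4C libraries and 519, 368, 231 and 199 FPKM in the 2C libraries, so 4C 1 alone was high. Its difference was 0.25 with an interval from -1.10 to 1.59, and it was -0.58 without 4C 1. MYC had 4.44, 2.90 and 2.97 FPKM in the 4C libraries and 2.03, 0.302, 0.751 and 0.505 FPKM in the 2C libraries (difference 1.29; limma, adjusted p = 0.132), with separate groups. MYC reached 1 FPKM in only 1 2C library, 2C 1, so it passed the filter through the 4C libraries. KLF17, named after its values were seen, was listed at 0 in 4C 1, 4C 2 and every 2C library and had 0.548 FPKM in 4C 3. SUPT4H1, a subunit of a transcription elongation factor, had 0.767, 4.88 and 11.8 FPKM in the 4C libraries, 0 to 1.9 FPKM in the 2C libraries and 15.3 to 168 FPKM in the 8C libraries, and its difference of 1.37 was not called (limma, adjusted p = 0.32).

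**Figure D5:**
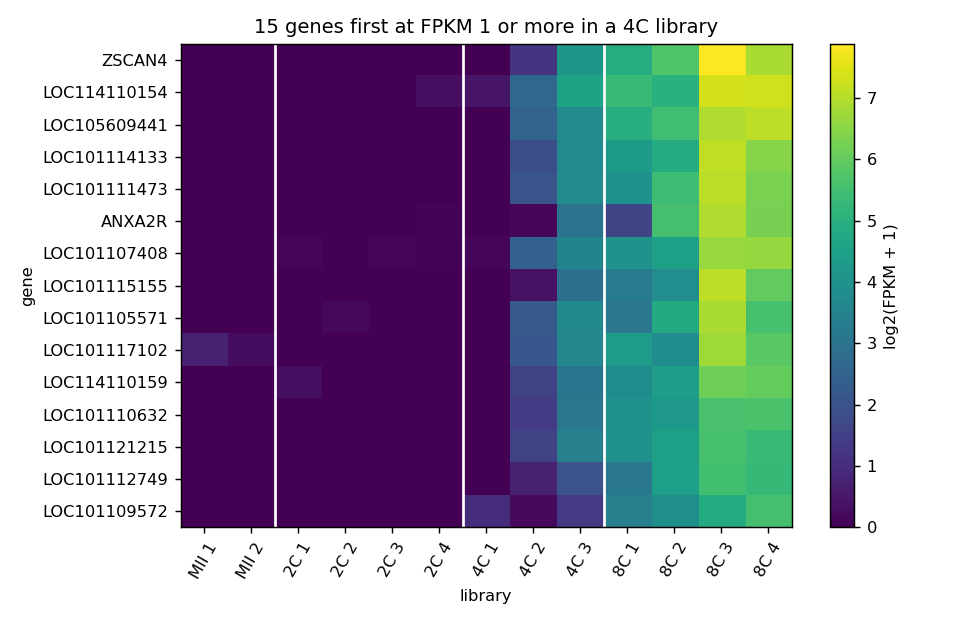
Levels, as log2(FPKM + 1) by colour, of the 15 genes first at 1 FPKM or more in a 4C library (rows, by 8C mean) in each MII, 2C, 4C and 8C library (columns). In the 4C block the median is 0 in 4C 1, 1.9 in 4C 2 and 10.8 in 4C 3 (in FPKM), and 12 of the 15 are listed at 0 in 4C 1.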

How the data were processed

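The authors deposited 1 table of FPKM per gene and library; the values were used as deposited. The submitters' processing notes name featureCounts 2.0.1, HISAT2 2.1.0, fastp 0.23.4 and SAMtools 1.9, with no settings. No build or annotation is given in the sources used here, so no coordinates are printed. FPKM are not counts, and no count test was run. Whether counting used strand is not given, so overlapping and antisense genes cannot be told apart.

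Groups came from the stage labels. The 3 4C and 4 2C libraries were fitted with limma 3.58.1 (lmFit, contrasts.fit, eBayes with intensity trend; two-sided; 5 residual and 3.9 prior degrees of freedom) in R 4.3.3 on log2(FPKM + 1), after a filter of FPKM of at least 1 in at least 2 of the 7 libraries, and Benjamini-Hochberg adjustment covered all 10163 genes. The fit was tested on simulated data. Depth came from low values of small RNA genes with lengths in the RefSeq gene table (ARS-UI_Ramb_v3.0), of which 100.0% were whole reads within 0.05 reads, over values up to 20 reads. Of the tested genes, 9585 have a symbol in that table.

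Named genes are those called, those nearest to a call with separate groups and a difference of at least 1 (to 10 a direction), 4 per list by level and difference, the 10 highest bounded genes, those high in 1 library, and the 15 highest at 8C of the set first seen at 4C; others are marked where named. A gene that the rule names is not reported here. The comparison, members and lists were chosen with earlier results of these data known. Alternatives were another pseudocount, other filters and scalings, all 26 libraries in the fit, a replicate block and leaving out each library.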

Additional observations from a re-analysis of the deposited data

Results flagged for a closer look

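A 2C library lay far from the other 3, by Dixon's test at the 95% level, in 12 of 127 series of values examined. Chance flags about 1 in 20 series of continuous values. A series with 0 in all but 1 library is always flagged, however small that value is. This applies to POLD4 and to the genes first seen at 4C that are named below. The 4C group of 3 libraries was not examined in this way. Among called genes the flagged series were those of MICU2 and POLD4. MICU2 was at 14.9 FPKM in 2C 4 against 11.5 to 12 FPKM in the others. POLD4 was at 0.0287 FPKM in 2C 4 and at 0 in the others. FSHR was at 2.90 FPKM in 2C 2 and at 0.224 to 0.369 FPKM in the others. The summed endothelial and blood cell markers were at 29.7 FPKM in 2C 2 and 10.4 to 11.3 FPKM in the others.

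Among genes first seen at 4C, ANXA2R was at 0.0643 FPKM and LOC114110154 at 0.250 FPKM in 2C 4, LOC101105571 at 0.114 FPKM in 2C 2 and LOC114110159 at 0.236 FPKM in 2C 1, each with 0 in the other 2C libraries. Among abundant genes, HNRNPU was high in 2C 1, at 249 FPKM against 192 to 193 FPKM. TBPL1 was low in 2C 1, at 1890 FPKM against 2587 to 2624 FPKM. In 2C 4, PRDX1 was low at 515 FPKM against 566 to 575 FPKM, and SMARCA5 was low at 221 FPKM against 277 to 282 FPKM.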

How the results depend on the processing

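The counts of calls depended on nearly every choice. There were 9 genes higher and 3 lower as reported, 1 and 0 with a pseudocount of 0.1, 1 and 0 on the TPM scale, 1 and 0 after quantile normalization, 0 and 0 with no filter beyond an FPKM above 0 (21323 genes, 2451 at an unadjusted p under 0.05), and 36 and 5 with all 26 libraries in the fit. They were 10 and 3 with a filter of 3 libraries and 12 and 3 with median-ratio scaling. Only 4 of the 12 reported genes were called in the fit of all 26 libraries, and IFI6 was not among them (limma, adjusted p = 0.482). Leaving out 1 library at a time gave 0 to 72 genes higher and 0 to 48 lower. Bounded genes numbered 6350 to 8304 in these fits and 18710 with no filter, where more genes were tested. TRNAS-GGA_55 was still called in 10 of 15 alternatives and each of the other called genes in 4 or 5; the cause was not tested.

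Replicate numbers gave no clear pairing of the libraries. Deviations of libraries with the same number correlated at 0.255, -0.00229 and -0.0406, inside the range of -0.401 to 0.389 for pairs with different numbers. The replicate block gave 0 genes higher and 0 lower (1145 at an unadjusted p under 0.05).

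Genes high in 1 library numbered 4 as reported, 24 at a gap of 1.5, 0 at a gap of 3, 94 at a gap of 1 (chosen after the data were seen), 14 with a pseudocount of 0.1 and 12 on the TPM scale. With 1 library left out at a time, the difference of EIF1AX (0.25 as reported) ran from -0.58 (without 4C 1) to 0.73, that of DAB2, an epithelial list gene (0.4 as reported), from -0.1 (without 4C 1) to 0.76, and that of TNFAIP6 (-0.32 as reported) from -2.36 (without 4C 1) to 0.77; TNFAIP6 was positive without 2C 1, 2C 2, 4C 2 or 4C 3. Of the list medians, those of decay factors, cleavage factors, oxidative phosphorylation, epithelial and endothelial genes changed sign in some fits.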
